A study of Mus musculus with 4 samples.

Results

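The immunoglobulin heavy and light chain segments were taken as all gene probes whose name in the array files starts with Igh, Igk or Igl, leaving out Ighmbp2, Igll1 and the Iglon names. The choice gave 38 probes on 47 spots under 15 file names, of 41174 probes under 27827 names in all. RNA of B220 B cells was hybridised to 4 Agilent 1-colour arrays, 1 for each group. B220 is the form of the surface phosphatase CD45 that the B lineage carries and that most plasma cells have lost. The cells were freshly isolated from naive mice, from bone marrow or spleen of mice labelled Mef2c KO (KO) or of C57BL/6 mice (wild type, WT). Mef2c is a MADS box transcription factor, and the title of the series calls its deficiency bone marrow-induced. The strain background of the KO, the promoter behind the deletion, the age of the mice and how many were pooled for an array are not stated in the sources at hand.

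An antibody is built of heavy and light chains, each with a variable part that binds antigen and a constant part. In the marrow, developing B cells cut and join 1 variable (V), diversity (D) and joining (J) segment of the heavy chain locus, and later 1 V and 1 J segment of the kappa or lambda light chain locus. Immature and naive B cells display the product as IgM. After activation, class switching replaces the mu constant region by a gamma, epsilon or alpha region, and plasma cells secrete the antibody in large amounts.

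The probes fell into 5 groups by their placement on mouse build mm9 and their descriptions in the files. There were 7 probes for heavy chain constant regions, 14 for heavy chain variable segments, 9 for kappa variable segments, 6 for the lambda variable segment and 2 for the lambda constant region. No member lay in the kappa constant region. Names and placements did not always match. A probe named Igh-6, the older name of the mu gene, lay among the kappa variable segments at chr6:70291007-70291066, and one named Igh-VJ558 lay in the epsilon constant region at chr12:114507500-114507641. Groups below follow the placement.

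The probe sequences show which part of the antibody message each group reports. The first lines below give constant region probes, all on the minus strand of chromosome 12. The mu probe lies at chr12:114659630-114659689, the alpha probe at chr12:114496985-114497044 and the gamma probe at chr12:114544665-114544724. The other lines give variable segment probes, in which capitals mark motifs near the end of a V segment or in a light chain J segment. TATTACTGT, TATTACTGC, TATTATTGT and TATTTCTGT spell the tyrosine and cysteine codons near the end of the V segment, and TTCGG spells the start of the phenylalanine and glycine codons in a light chain J segment.
mu constant region (A_51_P485421): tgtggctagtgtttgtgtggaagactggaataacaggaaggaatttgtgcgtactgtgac
alpha constant region (A_51_P509679): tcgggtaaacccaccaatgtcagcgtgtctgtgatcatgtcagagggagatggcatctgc
gamma constant region (A_52_P74106): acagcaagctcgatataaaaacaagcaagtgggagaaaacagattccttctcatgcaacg
heavy variable Igh-VX24 (A_51_P367462): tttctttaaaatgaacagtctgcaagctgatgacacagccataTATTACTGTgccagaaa
heavy variable J558 (A_52_P139027): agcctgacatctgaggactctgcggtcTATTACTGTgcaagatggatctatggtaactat
heavy variable J558 (A_52_P686392): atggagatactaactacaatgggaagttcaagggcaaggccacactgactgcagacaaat
heavy variable J558 (A_52_P151887): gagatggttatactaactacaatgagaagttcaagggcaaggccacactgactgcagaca
kappa variable Igkv1-117 (A_52_P957659): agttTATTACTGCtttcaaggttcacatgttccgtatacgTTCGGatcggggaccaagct
kappa variable Igk-V19-14 (A_52_P664842): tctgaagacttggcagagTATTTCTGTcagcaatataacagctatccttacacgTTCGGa
lambda variable and joining (A_52_P383114): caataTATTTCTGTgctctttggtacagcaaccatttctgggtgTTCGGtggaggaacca

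The motifs were searched as written, on the strand of the probe. One of the V segment motifs stood in 10 of the 29 variable probes and in 0.359% of all 41174 probes of 60 bases. TTCGG stood in 3 of the 29 and in 1.61% of all probes. The lambda probe A_52_P383114 shows joining directly: its 60 bases are placed from 19063333 to 19085147 of chromosome 16, a span of 21815 bases that holds the gap between V and J in unjoined DNA. The J558 probes A_52_P686392 and A_52_P151887 share a run of 35 bases. In all, 16 of 703 pairs of members, all within 1 group and over 19 probes, shared a run of at least 15 bases. V segments are near copies of each other, so which segment a variable probe reports is uncertain, and its signal can add up several.

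Of the 38 probes, 37 were well above background on every array by the scanner software's own mark, and 0 member spots were saturated. Signals were put on a log2 scale relative to the 75th percentile of each array, and a difference is in log2 units. The spleen KO array stood apart: its 75th percentile was 520 and 59.3% of its spots were above background, against 961 to 1008 and 69.1% to 72% on the others. The marrow comparison of KO with WT and the WT comparison of spleen with marrow do not use it. With 1 array a group differences within a tissue come without a replicate check. Both marrow arrays shared a slide and scan, both spleen arrays another, and KO took position 1 and WT position 2 on each, so tissue and slide cannot be told apart, nor genotype and position. The mu probe A_51_P485421 had 10 spots per array, whose SD was 0.0462 to 0.0736, and this covers the spotting alone. Marker lists were read on the same scale, and a summed level follows the brightest genes of its list. The brighter Mef2c probe had 5511 in KO marrow and 4218 in WT marrow, and 11840 and 8534 in the spleens, so it was not lower under either KO label. A dimmer probe differed by 0.36 in the marrow and -0.61 in the spleen. Which part of the gene was deleted is not stated, a probe outside it checks nothing, and genotype here is that of the labels. The B cell list of 5 genes (Cd79a, Cd79b, Ms4a1, Ptprc and Cd22) was above background throughout, with summed levels between 255 and 841 times the 75th percentile.

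**Figure D1:**
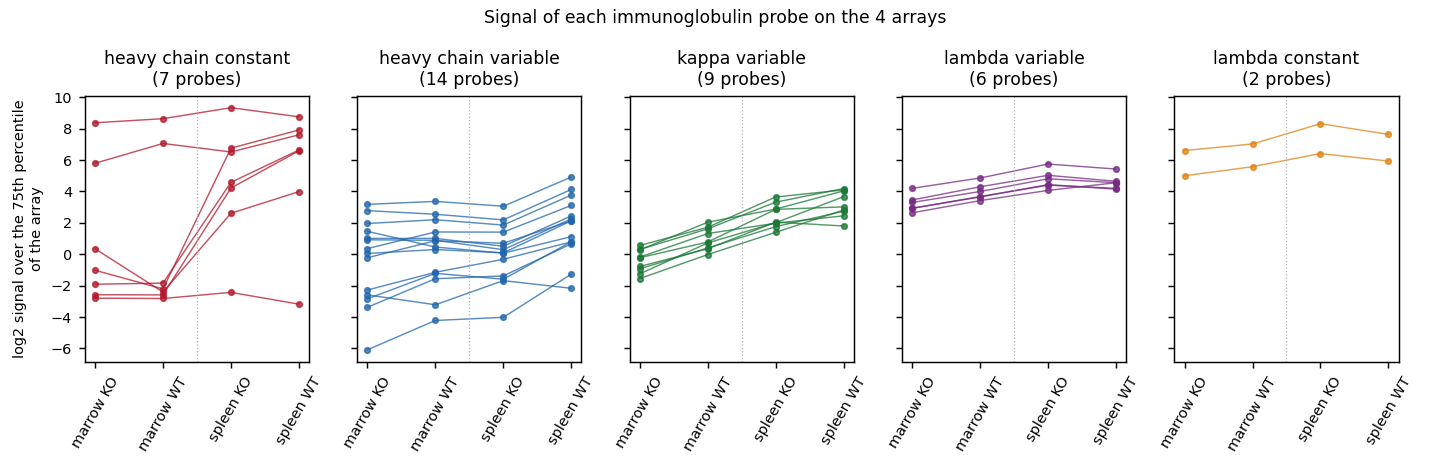
Log2 signal over the array's 75th percentile (vertical axis) of each immunoglobulin probe on the 4 arrays (horizontal axis), 1 panel per group of segments and 1 line per probe. The kappa lines run upward from marrow KO to marrow WT and on to spleen, the 3 alpha lines and the gamma line climb steeply between the tissues, and the lambda lines span less than the kappa lines.

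In the bone marrow, light chain signals were lower on the KO array than on the WT array, most of all for kappa. All 9 kappa variable probes were at least 2-fold lower, between -1.96 and -1.0. All 8 lambda probes were lower by less than 2-fold, between -0.84 and -0.42. Over all 38 members, 16 were at least 2-fold lower and 3 higher, beside 5.3% and 7.65% of all 30620 probes measured. The members' median was -0.71 and that of all probes -0.08. The medians of kappa, lambda and heavy variable probes were below 0 with each of the 4 other scalings or background corrections. In bulk RNA, fewer cells of a type and less RNA per cell cannot be told apart.

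Igkv1-117, a kappa V segment, had signals of 425 in KO marrow and 1578 in WT marrow, beside 2098 in KO spleen and 12345 in WT spleen. The marrow difference of -1.96 was 3.9-fold and the most negative of the kappa group. Igkv14-111 had 1226 in KO marrow and 3955 in WT marrow, and 3831 and 15979 on the spleen arrays. For both segments each KO array was below the WT array of its tissue, and both spleen arrays were far above marrow KO. The mildest marrow difference in the group, -1.0, belonged to Igk-V21-4, with 866 in KO marrow and 1651 in WT marrow. It lies at the 2-fold limit that the counts use.

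Heavy chain variable probes did not move as a block in the marrow. Of 14, 6 were at least 2-fold lower, 1 was higher, and the median over the 13 above background on both arrays was -0.24. The lower ones included an Ighv6-6 probe, A_51_P424199, with signals of 97.2 in KO marrow, 325 in WT marrow, 200 in KO spleen and 1533 in WT spleen. Its marrow difference was -1.81. A second Ighv6-6 probe, A_52_P382676, had 14.8 in KO marrow, which was not well above background, and 51.6 in WT marrow, so that KO was at least 3.27-fold lower. With normexp background correction its difference was -0.53, under 2-fold. The bound takes the lowest signal well above background on the KO array in place of the dim spot where it is the higher of both. Another 6 probes, of J558 and related segments, instead lay between -0.25 and 0.23. One of these, A_51_P476757, had 6911 in KO marrow and 5616 in WT marrow. The 1 probe that was higher, A_51_P117903 with the file name Ighg, had 2775 in KO marrow and 1318 in WT marrow, a difference of 1.0. The probe A_51_P155336 followed with 167 and 103, a difference of 0.63.

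Among the constant regions the only gamma member, a probe for an IgG heavy chain, had the largest marrow difference of all members. Its signal was 1289 in KO marrow and 181 in WT marrow, a difference of 2.77 or 6.8-fold. The gamma probe and the variable probe A_51_P117903 have the same source sequence, so they need not be independent observations. The mu probe A_51_P485421 went the other way, with 56148 in KO marrow and 128409 in WT marrow, a difference of -1.26 or 2.4-fold. A second probe described as mu, A_52_P358360, placed 2709 bases downstream, had 335661 and 382249, a difference of -0.26. Probes described alike therefore differed by more than the spread of the repeated spots of A_51_P485421. Of the 3 alpha probes, for IgA, A_51_P509679 had 498 on KO and 207 on WT, while the others differed by -0.07 and 0.01. The epsilon probe, for IgE, had 145 and 136, a difference of 0.02. All of these alpha and epsilon signals were well above background.

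Markers of other cells also differed between the marrow arrays. Of all probes measured there, 7.65% stood 2-fold or more above WT and 5.3% below. The early B cell list had 4 of 9 genes 2-fold or more above WT and 0 below, and its summed level was 523 on KO and 240 on WT. The neutrophil list had 10 of 11 genes above and 0 below, with summed levels of 1430 and 440. The T cell list had 3 of 8 above and 0 below, with 7.19 and 4.33. For the B cell list it was 2 of 5 below and 0 above, with 255 and 341. Of 13 measured plasma cell genes 1 was higher and 3 lower, with 104 and 85.2. The brightest of them, Mzb1, had 58847 on KO and 33712 on WT, and the median difference of the list was -0.28. The part of these lists in the immunoglobulin differences was not tested.

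**Figure D2:**
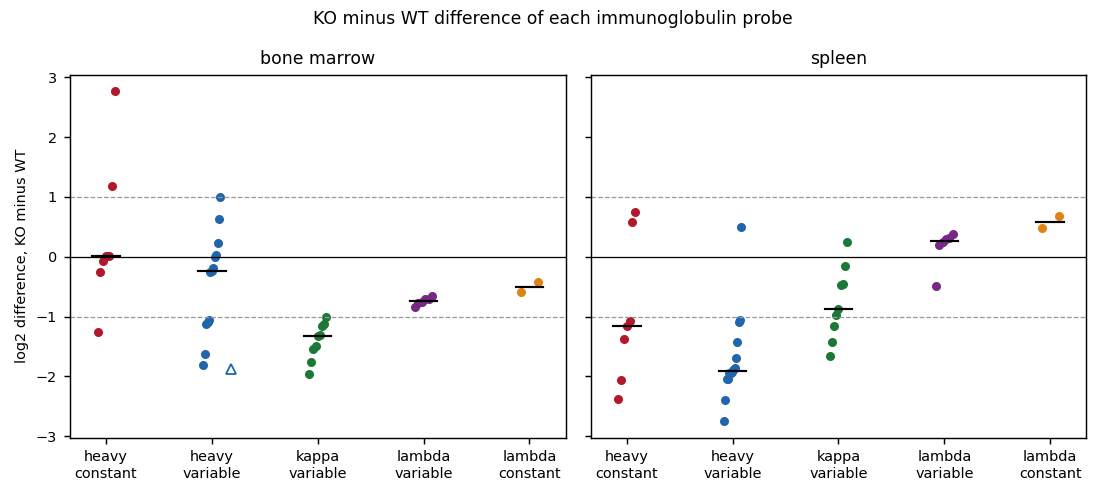
Log2 difference of KO minus WT (vertical axis) for each immunoglobulin probe, by group of segments (horizontal axis), in bone marrow (left) and spleen (right). Short bars are medians, dashed lines mark 2-fold, and the open triangle is a probe not above background in KO marrow, left out of the median. In the marrow all 9 kappa probes lie at or below -1.0; in the spleen 13 of 14 heavy variable probes do.

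In the spleen most heavy chain probes stood lower on the KO array, and kappa probes less so. Of 14 variable probes, 13 were at least 2-fold lower, with a median of -1.91. All 3 alpha probes, the gamma probe and the mu probe A_51_P485421 were lower too. The downstream mu probe and the epsilon probe were not, at 0.58 and 0.75. Of 9 kappa probes 8 were below 0, whereas 3 of 9 kappa probes and 0 of 8 lambda probes were at least 2-fold lower. Over all 38 members 21 were lower and 0 higher, beside 18.5% and 17.4% of all 28857 probes measured. The median of the members was -1.09 and that of all probes 0.16. Median scaling moved the latter to 0.58, so medians relative to it are also given: -2.07 for heavy variable, -1.03 for kappa and 0.15 for lambda probes.

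The heavy variable probe A_52_P226877, named Igh-VJ558, had 173 in KO spleen and 1694 in WT spleen, and 141 and 412 on the marrow arrays. Its spleen difference was -2.39, or 5.25-fold. A_52_P382676 had 32.1 in KO spleen and 403 in WT spleen, a difference of -2.75. A_51_P424199 followed at -2.04. These 3 were at least 2-fold lower on KO in both tissues. The bright J558 probe A_52_P139027, shown above, had 4338 in KO spleen, 29359 in WT spleen, 9138 in KO marrow and 9927 in WT marrow. It was 3.63-fold lower on KO in the spleen and 1.14-fold lower in the marrow. Whether the genotype difference itself differs between tissues cannot be tested with 1 array a group. The exception among the 14 was A_51_P155336, with 162 and 216 on the spleen KO and WT arrays, which on the scaled levels is a difference of 0.49.

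The alpha and gamma probes were lower on the spleen KO array, and the epsilon member was not. The 3 alpha probes had signals of 56310, 12454 and 9673 on KO and 234997, 96732 and 93664 on WT. Their differences were -1.16, -2.06 and -2.38, or 2.24-fold to 5.19-fold. The gamma probe had 3167 on KO and 15423 on WT and differed by -1.38, opposite to the marrow. The mu probe A_51_P485421 had 47902 and 189509, a difference of -1.08. The downstream mu probe had 337672 and 420599, a difference of 0.58 that was -0.97 with cyclic loess and -0.09 with quantile normalization. The epsilon probe had 96.3 and 107, a difference of 0.75 after scaling. With median scaling the mu, gamma and first alpha probe, at -0.67, -0.97 and -0.74, were less than 2-fold lower, and cyclic loess put mu at -2.32.

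In the spleen the kappa median lay below the lambda median, as in the marrow, and how far apart they were depended on the scaling. Kappa variable probes lay between -1.66 and 0.25 with a median of -0.87, and 8 of 9 were below 0. Igk-V19-14, with 1371 in KO spleen and 6855 in WT spleen, was at -1.42 and Igkv1-117 at -1.66. Lambda probes lay between -0.49 and 0.68. The joined lambda probe A_52_P383114 had 16930 in KO spleen and 24350 in WT spleen, a difference of 0.38, and A_51_P503757, which also spans V and J, was at 0.32. The lambda constant probes A_51_P503756 and A_52_P450277 were at 0.68 and 0.48. The direction of lambda is not settled: the median of all 8 was 0.31, but -0.58 with cyclic loess and -0.43 with quantile normalization. The kappa median was -1.24 with cyclic loess, which put the marrow medians of kappa and lambda at -1.31 and -0.75. The medians of kappa, heavy variable, alpha and mu (A_51_P485421) stayed below 0 with each of the 4 other scalings or background corrections.

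The spleen arrays differed in other cell markers as well. Of all probes measured there, 17.4% stood 2-fold or more above WT and 18.5% below. The neutrophil list had 6 of 10 measured genes 2-fold or more above WT and 0 below, and its summed level was 146 on KO and 11.2 on WT. The macrophage list had 3 of 7 above and 1 below, with 64.6 and 33.1, the early B cell list 2 of 6 measured above and 0 below, and the NK cell list 0 of 4 above and 2 below. Of 4 measured erythroid genes 4 were higher, with summed levels of 169 and 25.2. The plasma cell list had 2 of 14 above and 4 below, with 137 and 124. Of its genes Mzb1 had 38478 on KO and 29462 on WT, and Jchain 5041 and 44399. The median difference of the list was -0.25. The B cell list had 2 of 5 above and 2 below, with 841 and 553. The part of these lists in the immunoglobulin differences was not tested.

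Over both tissues, 20 of 38 members were below 0 in each, and 10 were at least 2-fold lower in each. These were 6 heavy variable, 3 kappa variable and 1 constant region probe, for mu. How many of all probes did so in both tissues was not counted. Taken singly, 5.3% of all probes measured in the marrow and 18.5% in the spleen were at least 2-fold lower. In a limma fit with tissue and genotype as terms, which takes the tissues as repeats of 1 genotype effect and leaves 1 residual degree of freedom, 0 of 38 members passed an adjusted p of 0.05. Of all 31991 probes tested, 0.0125% were called higher in KO and 0.0% lower. Unadjusted, 8 members had a p under 0.05, all lower in KO, beside 11.5% of all probes. The lowest adjusted p among members was 0.249, for A_52_P382676 at -2.31 ± 0.557 (SE, limma). Igkv1-117 was at -1.81 ± 0.541 with an adjusted p of 0.312 in limma. With normexp background correction 6 members passed, all lower in KO, beside 2.87% of all probes in either direction. With only probes above background on all arrays 3 of 37 passed, all lower, beside 2.68%.

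Between the tissues of WT mice the alpha and gamma constant regions differed most. The 3 alpha probes had 207, 268 and 160 in WT marrow and 234997, 96732 and 93664 in WT spleen. These are differences of 10.13, 8.48 and 9.18, or 357-fold to 1120-fold. The gamma probe had 181 and 15423, a difference of 6.40 or 84.6-fold. The mu probe A_51_P485421 was higher by 0.55 and the downstream mu probe by 0.12, the latter turning to -0.05 with median scaling and -0.39 with quantile normalization. The epsilon probe, with 136 in WT marrow and 107 in WT spleen, differed by -0.36 and was the 1 member below 0. Kappa variable probes were 1.13 to 2.95 higher in spleen and heavy variable probes 0.67 to 2.95, with medians of 2.34 and 1.57. Lambda probes were 0.35 to 1.14 higher. In all, 27 of 38 members were at least 2-fold higher and 0 lower, beside 17.8% and 14.5% of all 31094 probes.

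On the KO arrays the values of this contrast were smaller for alpha, gamma and most heavy variable probes. They were larger for all 17 light chain probes, but with quantile normalization for 4 of 9 kappa and 7 of 8 lambda probes, and with cyclic loess for 6 of each. The alpha probes were higher in spleen by 7.78, 6.49 and 6.80 and the gamma probe by 2.25. Kappa probes were higher by 2.16 to 3.26, and lambda probes by 1.42 to 1.71. The lambda range was 0.82 to 1.2 with quantile normalization and 0.83 to 1.1 with cyclic loess. Heavy variable probes had a median of 0.04 that turned to -0.12 with cyclic loess, with 5 at least 2-fold higher and 1 lower. The lower one, A_51_P117903, had 2775 in KO marrow and 546 in KO spleen. In all, 26 members were at least 2-fold higher and 1 lower, beside 14.7% and 14.0% of all 29333 probes. These values share their arrays with the genotype differences above, and the difference between both contrasts was not tested.

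**Figure D3:**
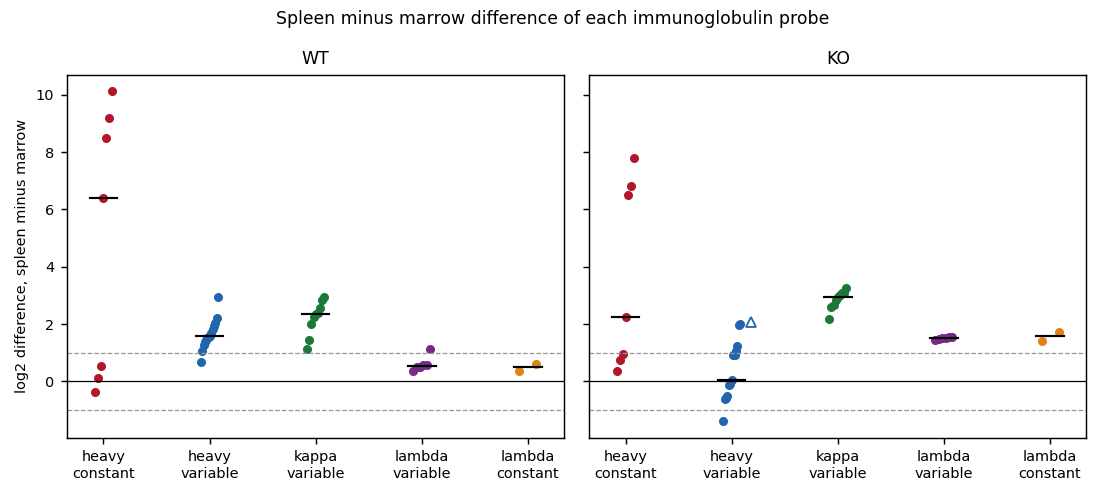
Log2 difference of spleen minus marrow (vertical axis) for each immunoglobulin probe, by group of segments (horizontal axis), for WT (left) and KO (right). Short bars are medians, dashed lines mark 2-fold, and the open triangle is a probe not above background in KO marrow. Alpha probes are the highest points of both panels, and the heavy variable median is 1.57 for WT and 0.04 for KO.

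In the limma fit 13 members passed as higher in spleen and 0 as lower, beside 2.18% and 4.41% of all 31991 probes. They were the 3 alpha probes, the gamma probe, 7 of 9 kappa probes and 2 of 14 heavy variable probes. The alpha probe A_51_P509679 was higher by 8.95 ± 0.661 (SE), with an adjusted p of 0.000329 in limma. The gamma probe was higher by 4.33 ± 0.865, with an adjusted p of 0.0178 in limma. Igkv1-117 was higher by 3.11 ± 0.541, with an adjusted p of 0.00981 in limma. None of the 8 lambda probes passed, with adjusted p values from 0.228 to 0.472 in limma. Plasma cell genes had summed levels of 85.2 in WT marrow and 124 in WT spleen, and of 104 and 137 on the KO arrays. Their median differences were 0.47 on WT and 0.36 on KO, and Jchain among them differed by 5.57 and 5.87. For WT 5 of 14 plasma cell genes stood 2-fold or more above marrow and 1 below, and for KO 3 of 13 measured above and 3 below. The early B cell list had 9 of 9 genes 2-fold or more below marrow in each genotype, with medians of -7.33 for WT and -7.87 for KO. Neutrophil genes were lower for 10 of 11 on WT and 11 of 11 on KO, with medians of -5.13 and -5.55. Macrophage genes were higher for 7 of 7 on WT and 6 of 7 on KO, T cell genes for 5 and 2 of 8, and B cell genes for 1 and 4 of 5. Of all probes measured, 17.8% were 2-fold or more higher in spleen and 14.5% lower on WT, and 14.7% and 14.0% on KO. The part of these lists in the tissue differences was not tested.

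Position along the heavy chain locus was set beside the differences, since V segments spread over a long stretch upstream of the constant regions. The V probe nearest the mu probe, Igh-VX24, lay 166.8 kb away and differed by -1.12 in the marrow and -1.10 in the spleen. Next came A_51_P117903 at 510.6 kb, with 1.0 and -1.05, and A_51_P424199 at 970.4 kb. The farthest were 3 J558 probes 2531.1 to 2531.2 kb away, A_51_P476757, A_52_P686392 and A_52_P151887. They differed by 0.23, 0.00 and 0.03 in the marrow and by -1.94, -1.93 and -1.95 in the spleen. Over the 14 V probes, Pearson's r of distance and difference was 0.16 in the marrow and -0.38 in the spleen, with Spearman's rho of 0.30 and -0.38. These describe 14 probes that share arrays and, in part, sequence. Probes that share long runs did not always move alike: A_51_P328275 shares 21 bases with A_52_P151887, and they differed by -1.09 and 0.03 in the marrow. Set beside GC content, the heavy variable median in the marrow was -1.12 for 3 probes of up to 40% GC, of which 1 was at 0.63, -0.19 for 7 up to 50% and -0.24 for 3 above. In the spleen it was -1.57 for 4 probes, -1.86 for 7 and -1.94 for 3, so no order common to both tissues was seen. For spleen minus marrow the medians in the same order of GC were 2.08, 1.43 and 1.59 on WT. On KO they were 1.96, -0.12 and -0.10, and Pearson's r of GC and difference was -0.68 over 14 probes.

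**Figure D4:**
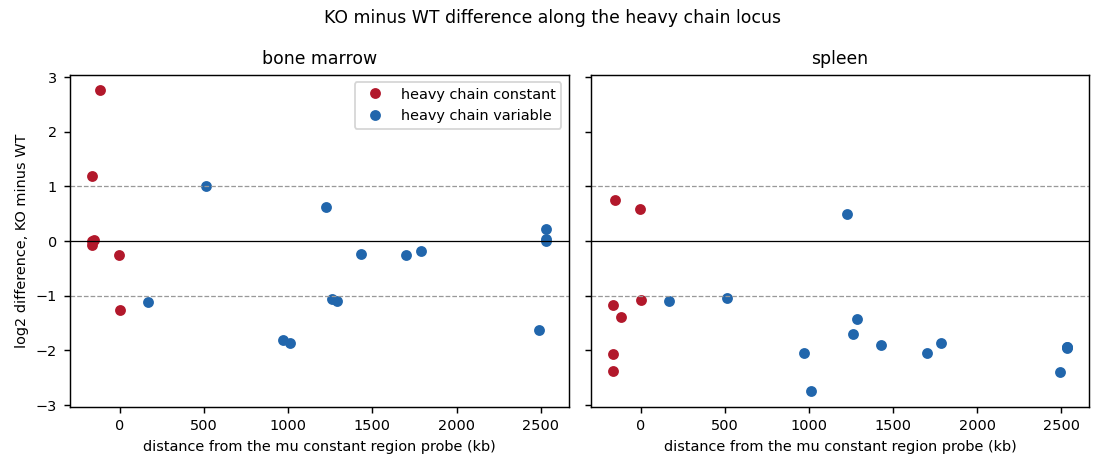
Log2 difference of KO minus WT (vertical axis) against the distance in kb from the mu constant region probe A_51_P485421 (horizontal axis), with V segments at positive distances, in bone marrow (left) and spleen (right). Each point is 1 probe and dashed lines mark 2-fold. The marrow points scatter between -1.87 and 2.77 and the spleen V points lie below -1.0 except 1 at 0.49.

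The arrays hold 60 more probes that the files describe as immunoglobulin gene segments but list under other names, outside the rule above. They were set beside the members. In the marrow, 27 of 34 measured kappa variable probes were at least 2-fold lower on KO and 0 higher. Their median was -1.24, against -1.33 for the 9 members. Of 19 heavy variable probes 9 were lower, with a median of -0.96 against -0.24. In the spleen 17 of those 19 were lower, with a median of -1.97 against -1.91. For kappa 11 of 35 were lower, with a median of -0.79 against -0.87. The lambda probe IGLC3 was at -0.58 in the marrow and 0.45 in the spleen. Constant regions without a member were among them. IGHD, the delta chain of mature naive B cells, had 1855 in KO marrow, 3380 in WT marrow, 9401 in KO spleen and 44665 in WT spleen. Of 2 probes for IGHG2C, the gamma chain form that C57BL/6 mice carry, the brighter had 22.9, 19.5, 63.0 and 8056 in the same order, a spleen difference of -6.10. Since the strain background of the KO is not stated, genotype and strain cannot be told apart, for these probes or for the members. In the marrow both IGHG2C probes were dim and differed by 0.16 and -0.79, unlike the gamma member. One more mu probe had 93808, 138446, 175258 and 258528, with differences of -0.63 and 0.34 that lay between those of both mu members. A second epsilon probe, IGHE, had 4.1, 3.8, 4.2 and 23.2 in that order and was above background only in WT spleen. Its spleen difference of -1.57 therefore rests on a KO signal not above background.

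**Figure D5:**
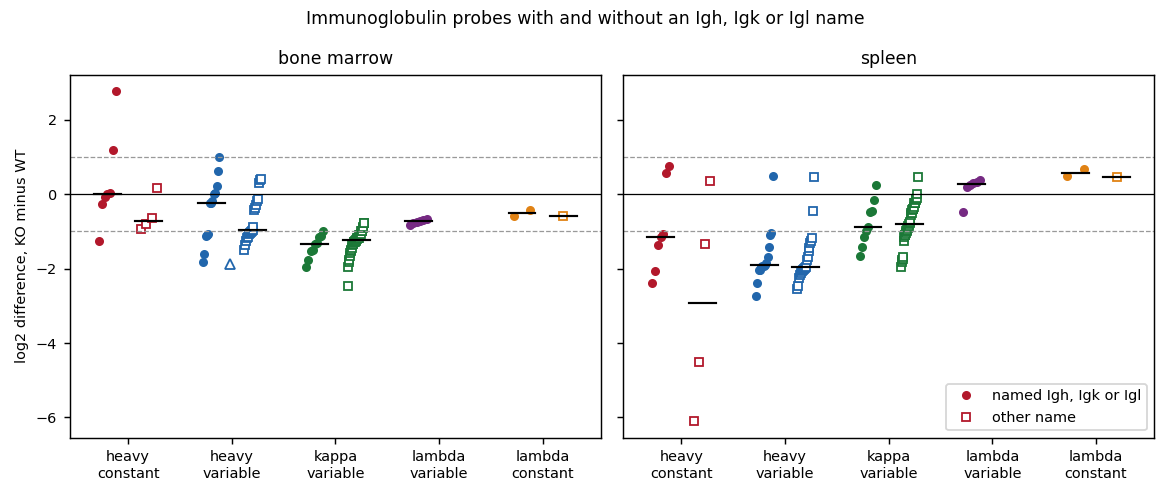
Log2 difference of KO minus WT (vertical axis) for the 38 members (filled circles) and for those of the 60 other immunoglobulin probes that were above background on all arrays (open squares), by group of segments (horizontal axis), in bone marrow (left) and spleen (right). Short bars are medians, and the open triangle is a member not above background in KO marrow. The kappa medians of both sets lie below -1.0 in the marrow, and an IGHG2C probe at -6.10 is the lowest point of the spleen panel.

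Genes that work with the immunoglobulin loci were read from a list of 30, of partner chains, regulators of transcription, and enzymes of joining and switching. On the marrow arrays 3 of them stood 2-fold or more above WT and 6 below, beside 7.65% and 5.3% of all probes measured. In the spleen 6 of 28 measured stood above and 10 below, beside 17.4% and 18.5%. The median of those above background on both arrays was -0.28 in the marrow and -0.05 in the spleen, the latter turning to 0.37 with median scaling and 0.01 with normexp. By limma, 0 of the 30 passed the genotype test, with a lowest adjusted p of 0.238, and 6 had an unadjusted p under 0.05, beside 11.5% of all probes.

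Of the surface chains that carry the receptor's signal, Cd79a had 885 in KO marrow, 3090 in WT marrow, 584 in KO spleen and 6006 in WT spleen. Its differences were -1.87 and -2.46, with an adjusted p of 0.267 in limma. Cd79b, its partner, differed by -0.34 and 0.24, the latter between -1.20 and 0.66 with other scalings. Jchain, which links IgA and IgM into polymers, had 167 in KO marrow and 927 in WT marrow, and 5041 and 44399 on the spleen arrays, differences of -2.54 and -2.24. Fcmr, a receptor for IgM, was at -1.56 and -1.12. Pou2f2, an Oct factor that binds immunoglobulin promoters, was at -1.71 and -3.19. Pax5, which sets B cell identity, was at -1.10 and -1.26. Higher in both tissues were Vpreb1, part of the surrogate light chain of pre-B cells, at 1.34 and 1.81, and Dntt, which adds bases at the joints, at 1.54 and 1.0. Each of these differences kept its sign with each of the 4 other scalings or background corrections, apart from that of Cd79b in the spleen. In the spleen the 2-fold difference did not hold throughout: Pax5 was between -0.98 and -0.60 with the others, and Dntt and Fcmr came as near 0 as 0.46 and -0.70. In the marrow Pax5 came as near as -0.79. Vpreb1 and Dntt were dim in the spleen, with 314 and 300 on KO and 167 and 280 on WT. In KO marrow they had 281828 and 149978. The unscaled Dntt signals of both spleen arrays were close, so most of its spleen difference comes from the scaling.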

How the data were processed

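Each array has a deposited scanner file of spot intensity, for which the authors ran Feature Extraction 10.5.1.1 and which places probes on mm9, per the file headers. Background was subtracted and detrended within the array, per the file headers. The deposited matrix repeats these intensity values (largest difference 0). Signals were then taken to log2, the 75th percentile of 43379 gene spots was subtracted per array, 72 to 85 outlier spots per array were dropped, and spots of a probe were averaged. A probe was measured where well above background on 1 array of a comparison. With 1 array a group, probes were counted at 2-fold, with no p-value. The test was limma 3.58.1 (R 4.3.3) on 4 arrays, with Benjamini-Hochberg adjustment over all 31991 probes above background on at least 1 array and a threshold of 0.05. A check on simulated arrays covered the recovery of set changes under little noise, not the larger spread of these arrays. Other background, scaling and filter settings were tried.

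The members, their groups and the gene lists were chosen with earlier results of these data known. Named variable probes are the 3 most positive and 3 most negative of each comparison among those above background on both arrays, those with only a bound, and the 3 nearest and 3 farthest along the heavy locus, with every constant region probe. The partner genes named are those 2-fold apart the same way in both tissues, with Cd79a and Cd79b. A few others were named after their values were seen: A_52_P139027, A_51_P328275, Igk-V21-4 in the marrow, the lambda probes' range, and the 60 probes under other names. A test of promoter motifs was not used here, since 0 of the members' promoters were in the reference table. A member of the B cell list and a member of the partner list are not reported here and were left out of both lists.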

Additional observations from a re-analysis of the deposited data

Results flagged for a closer look

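Some probes had opposite directions between the tissues or between the genotypes while at least 2-fold apart on 1 side; with 1 array a group none of these differences was tested. How many of all probes did so was not counted, so the numbers below do not set the members apart. Between the tissues 7 members did so for KO minus WT. The gamma probe A_52_P74106 went from 2.77 in the marrow to -1.38 in the spleen, a change of -4.15. It shares its source sequence with the variable probe A_51_P117903. The alpha probes A_51_P509679 and A_51_P180159 changed by -2.35 and -2.39, the heavy variable probes A_51_P117903, A_51_P476757 and A_52_P151887 by -2.05, -2.17 and -1.98, and the kappa probe A_52_P162637 by 1.37. The first differences of A_51_P180159 and A_52_P151887, 0.01 and 0.03, are near 0, and each probe has 1 spot per array. With normexp that of A_51_P180159 was -0.03. The spleen difference of A_52_P162637, 0.25, was -0.15 with quantile normalization.

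Between the genotypes 6 heavy variable probes did so for spleen minus marrow, higher in spleen on the WT arrays and lower on the KO arrays. The changes from WT to KO were -2.06 for A_51_P117903, -1.66 for A_51_P128248, -1.67 for A_52_P139027, -2.17 for A_51_P476757, -1.93 for A_52_P686392 and -1.99 for A_52_P151887. With median scaling the KO differences of A_51_P128248 and A_52_P139027 were 0.13 and 0.11, no longer below 0. Both sets of values come from the same 4 arrays.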

How the results depend on the processing

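Of 70 alternative counts of members, 57 stayed within 1.5 times the reported one. Some had little room to move: 37 of 38 members were well above background on every array, so other filters hardly change the 2-fold counts. The count of members lower in WT spleen was 0 with every setting. With 1 probe per file name only 15 of the 38 members remain, so fewer can be counted. Of these 15, 10 were lower in marrow KO and 9 in spleen KO. Higher in spleen than in marrow were 13 on WT and 12 on KO, and 0 were lower on KO. Members at least 2-fold higher in marrow KO were 1 with normexp, and those higher in spleen KO 3 with median scaling, 1 with quantile normalization and 1 with cyclic loess, against 0. Members past the limma genotype threshold were 6 with normexp, 1 with no filter and 3 with probes above background on all arrays, against 0; of all probes 2.87%, 2.12% and 2.68% passed there, against 0.0125%. Past the tissue threshold were 8 with cyclic loess, against 13. The causes were not tested. None of the differences of the 27 named probes that reached 2-fold changed sign with the 4 scaling and background settings, and those that moved by over 1.5 times were 14 of 108 with cyclic loess, 13 with quantile normalization, 4 with normexp and 0 with median scaling. Leaving out an array leaves no residual degree of freedom. The number of arrays limits the precision, and A_52_P382676, at 14.8 in KO marrow, has only a bound there.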
